A study of Mus musculus with 7 samples.

Results

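Reporter output of DNase hypersensitive DNA with the pPGK promoter was compared between a library labelled PMA_I and a library without that label. The comparison covered 50284 bins of 500 bp (build mm9), out of 2211975 bins in which any of the study's files had a used position, and 2 of the study's 7 samples. A bin was kept by its depth in the plasmid input, at least 50 input reads at used positions. Positions with a mapping score under 30 in the file of either library were left out. Reporter read counts therefore did not choose the bins, but the mapping scores in these files had a part in the choice. Captured DNase hypersensitive fragments had been assayed by CapStarr-seq in P5424, a line of immature mouse T cells grown in RPMI medium with serum.

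Both groups held 1 library of the P5424 line and the same pPGK plasmid input, and differed only in the PMA_I of the title. The labels' treatment entry lists both agents for each sample, the library without PMA_I in its title included, so only the title tells the groups apart. No dose and no time of stimulation is given in the labels. The promoter was pPGK, that of phosphoglycerate kinase. SCP1 (super core promoter 1) and a promoter labelled pR-Ea drove the other reporter libraries, which serve here only to sort bins. With 1 library a group there was no replicate check, and every difference below is a difference between these libraries.

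PMA, a phorbol ester, switches on protein kinase C, and ionomycin, an ionophore, raises calcium in the cytosol. Given together they bypass the T cell receptor and activate transcription factors of the AP-1, NFAT and NF-kB families. In a self-transcribing reporter the tested fragment lies within the transcript it regulates, so the fragment's own RNA reads report its activity. The series title concerns silencers and tandem repeats in T cells, and the comparison asks how the stimulus moved the output of such DNA, above all of bins with low output in the library without it.

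Activity is given as log2 of a bin's share of reporter reads over its share of input reads, with 1 read added to each count and shares taken over the kept bins. It is therefore relative to the average bin, and a bin below input is not shown to silence. The change is log2 of the PMA_I share over the pPGK share. A bin was called higher or lower when the change was at least 2-fold, the exact (Clopper-Pearson) 95% interval of the ratio left out equality, and both libraries together held at least 50 reads. Intervals cover counting error only, and PCR copies of 1 molecule make them narrower than they should be. A standard error over the distinct 5′ positions of a bin (SE) is given beside them for single bins.

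The PMA_I file held 61707100 reporter reads, the pPGK file 72217277, and both listed the same 30248710 input reads. Of these, 90.1% of the PMA_I reads, 64.4% of the pPGK reads and 56.1% of the input reads lay at positions that neither file listed with a mapping score under 30. The median kept bin had 365 PMA_I reads on 18 positions, 294 pPGK reads on 21 positions and 105 input reads on 11. The files also differed on the minus strand. Positions with 0 reads in the other library and in the input took 3.29% of the minus-strand reads of PMA_I and 25.7% of those of pPGK, while on the plus strand they took 0.843% in PMA_I and 1.12% in pPGK. Of 37248 such minus-strand positions of pPGK with at least 30 reads, 28.6% had a position shared with PMA_I exactly 26 bp lower, 11.4% at 25 bp and 10.1% at 27 bp, against a median of 0.945% at the other distances up to 60 bp. A shift of this size is small beside a 500 bp bin, but it adds pPGK positions, and its part in the results that rest on positions was not tested.

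Bins above input were more numerous in the PMA_I library than in the pPGK library, while bins below input were about as numerous with the main scaling. At least 2-fold above input were 5299 bins (10.5%) in PMA_I and 2234 bins (4.44%) in pPGK. At least 2-fold below input were 5204 bins (10.3%) in PMA_I and 5141 bins (10.2%) in pPGK. With medians set to 0, 6556 bins were below input in PMA_I and 5860 in pPGK. With scaling to all used reads they were 7729 and 6363, and without a filter on the mapping score 11509 and 6814. The upper end of activity was wider in PMA_I, with a 99th percentile of 1.64 in PMA_I and 1.32 in pPGK, and the lower end hardly differed, with a 1st percentile of -3.43 in PMA_I and -3.53 in pPGK. Over all kept bins the activities of the libraries had a Spearman rho of 0.857, over bins that share 1 input.

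Bins moved by 1 step at most, with few exceptions. Above input in PMA_I but not in pPGK were 3512 bins, with a median change of 0.47, of which 128 were called higher. These bins were not low to begin with: their median activity was 1.16 in PMA_I and 0.75 in pPGK, and the lowest had -0.50 in pPGK. Above input in both libraries were 1787 bins. Bins below input in pPGK left that class in 1336 cases, and 1389 others entered it in PMA_I, while 3805 were below in both. No bin below input in pPGK was above it in PMA_I, and 10 bins went the other way.

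**Figure D1:**
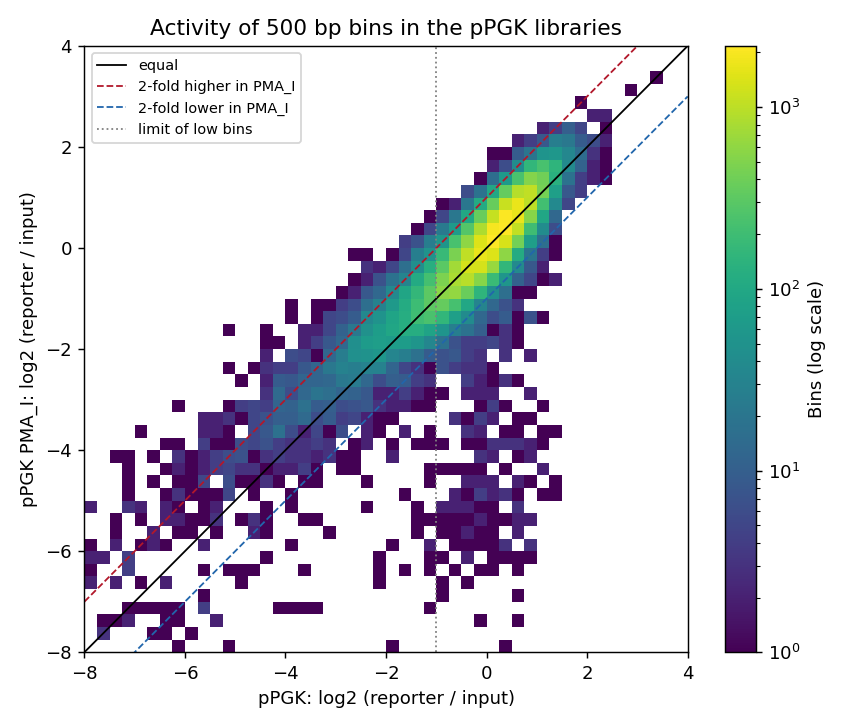
Activity of the 50284 kept bins, as log2 of reporter over input, in pPGK PMA_I (vertical) against pPGK (horizontal), coloured by the number of bins on a log scale, with lines for equality and for 2-fold differences. Left of the dotted line, the limit of low bins at -1, the cloud lies above the line of equality more often than below it, and a separate tail of bins runs down to low PMA_I values at middling pPGK activity.

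By the rule of size 723 of 49862 bins (1.45%) were higher and 515 (1.03%) were lower in PMA_I than in pPGK, and 422 kept bins had too few reporter reads. The median change was 0.09, with an interquartile range of -0.15 to 0.34. This balance depended on the scaling. With the median change set to 0 the calls were 475 higher and 677 lower, with TMM scaling 489 higher and 662 lower, and with scaling to all used reads 434 higher and 706 lower. Changes are therefore read against other bins and not as gains or losses of output. The median change was 0.26 over the 4692 bins just inside the input limit, with 50 to 54 reads, and 0.27 over 5966 bins just outside, with 45 to 49. Over all bins it was 0.03 with a minimum of 200 input reads, 0.15 with a minimum of 20 and 0.17 with none, against 0.09 with the minimum of 50.

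Bins low in pPGK, by the same pPGK reads that enter the change, were higher in PMA_I far more often than other bins. Counting error alone acts in this direction. Classes from other reads are given below, and those from the opposite strand or from PMA_I reversed the difference of medians. Of 4719 low bins (log2 activity at or below -1) 425 were called higher, or 9.01% against the 1.45% of all bins, and 55 were called lower, or 1.17%. Of the 45143 other bins 298 (0.660%) were higher and 460 (1.02%) lower. The median change was 0.29 in low bins and 0.08 in the others. With the median of all bins at 0, and the classes set anew, 316 low bins were higher and 85 lower.

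The class with the least output showed the largest share. In bins at or below -2, 252 of 1278 (19.7%, exact binomial 95% interval 17.6% to 22.0%) were higher and 7 lower, with a median change of 0.55. This interval treats bins as independent, though all come from the same libraries and share their scaling. Between -2 and -1, 173 of 3441 (5.03%) were higher and 48 lower, with a median of 0.19. Above that the calls were near or under the background of 1.45% and 1.03%. From -1 to 0 there were 192 higher and 203 lower of 17010 bins, from 0 to 1 there were 103 higher and 230 lower of 25899, and at 1 or above 3 higher and 27 lower of 2234. Their median changes were 0.05, 0.09 and 0.12 in that order of classes. A further 419 bins at or below -2 had too few reporter reads for a call, and with them included the median of that class was 0.56.

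In finer steps the median change grew steadily as pPGK activity fell. It was 1.09 over 25 bins at or below -5, then 0.86 up to -4, 0.73 up to -3, 0.57 up to -2.5, 0.45 up to -2, 0.31 up to -1.5 and 0.15 up to -1. From there to the top step, above 1.5, it stayed between 0.04 and 0.13.

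The pPGK reads set these classes and also stand below the line in the ratio, so counting error alone would raise low bins. The classes were therefore also taken from reads that the change did not use. With the class from odd-numbered positions and the change from even-numbered ones, 166 of 2763 low bins (6.01%) were higher and 66 (2.39%) lower, with a median change of 0.19, against 0.01 in the other bins. Here the other bins had 1089 lower calls of 22419 (4.86%), and the displaced minus-strand positions of pPGK enter this split. In a further split the position with most reads in each bin and library was left out of the reporter reads but not of the input. This put 8384 of 30056 bins in the low class, against 3609 with all positions, so the classes are not the same bins. Those low bins had more lower than higher calls, 290 (8.41%) against 173 (5.02%), with a median of 0.09, and -0.02 in the other bins. With all positions of the plus strand alone, the odd and even split gave 115 higher (5.45%) and 29 lower (1.37%) of 2112 low bins, with a median of 0.25. The 10881 other bins had 90 higher and 192 lower and a median of -0.02. Bins at or below -2 by odd plus-strand positions had 69 higher and 7 lower of 558, with a median of 0.45.

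**Figure D2:**
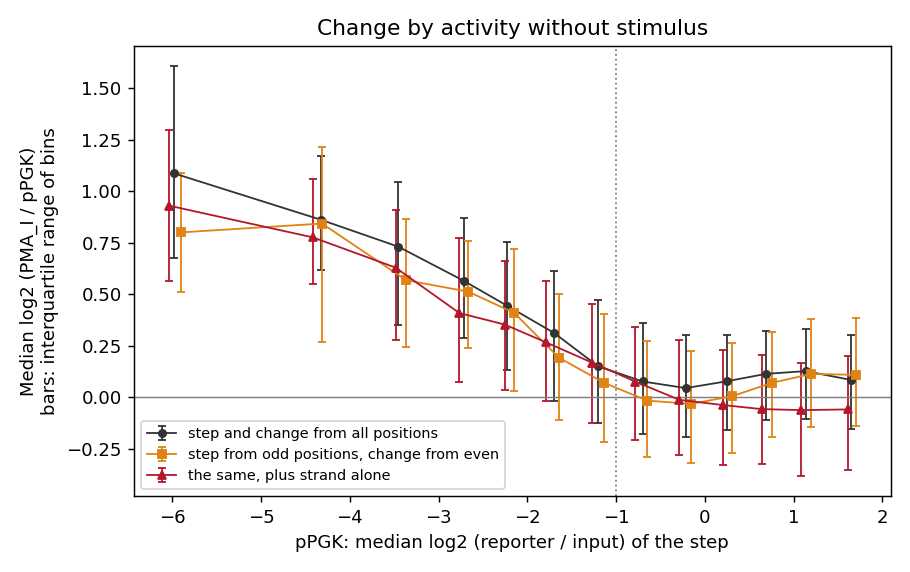
Median log2 change (PMA_I over pPGK) with the interquartile range of bins, by steps of pPGK activity, for steps and changes from all positions (circles), from odd and even positions (squares) and from odd and even positions of the plus strand (triangles). All 3 lines fall as pPGK activity rises to -1, apart from the lowest pair of squares; above it the circles stay between 0.04 and 0.13, and the triangles lie below 0 from -0.5 up.

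Other promoters gave classes that share no reporter reads with the change. Of 5665 bins low with SCP1, 168 (2.97%) were higher and 37 (0.653%) lower, with a median change of 0.16, against 0.02 in the other bins. Of 2551 bins low with pR-Ea, 128 (5.02%) were higher and 15 (0.588%) lower, with a median of 0.19, against 0.00 in the other bins. The 1452 bins low with both had 100 higher (6.89%) and 7 lower (0.482%), with a median of 0.29. Bins at or below -2 led again: 108 of 1276 with SCP1 (8.46%, median 0.34) and 59 of 479 with pR-Ea (12.3%, median 0.42) were higher. The background over the bins with an SCP1 class was 0.769% higher and 0.612% lower, and over those with a pR-Ea class 0.718% and 0.619%.

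Classes that used PMA_I reads gave other results. With the class from PMA_I itself, whose counting error acts in the opposite direction, 211 low bins were higher (4.41%) and 411 lower (8.59%), and the median change was -0.08 in low bins and 0.11 in the others. With the class from the mean of both libraries 309 low bins were higher (6.64%) and 291 lower (6.26%), with medians of 0.11 in low bins and 0.09 in the others. A change of filter mattered too. Without a filter on the mapping score the difference between low and other bins was -0.19, with 7249 bins higher, 7785 lower and a median change of 0.48 over all bins.

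**Figure D3:**
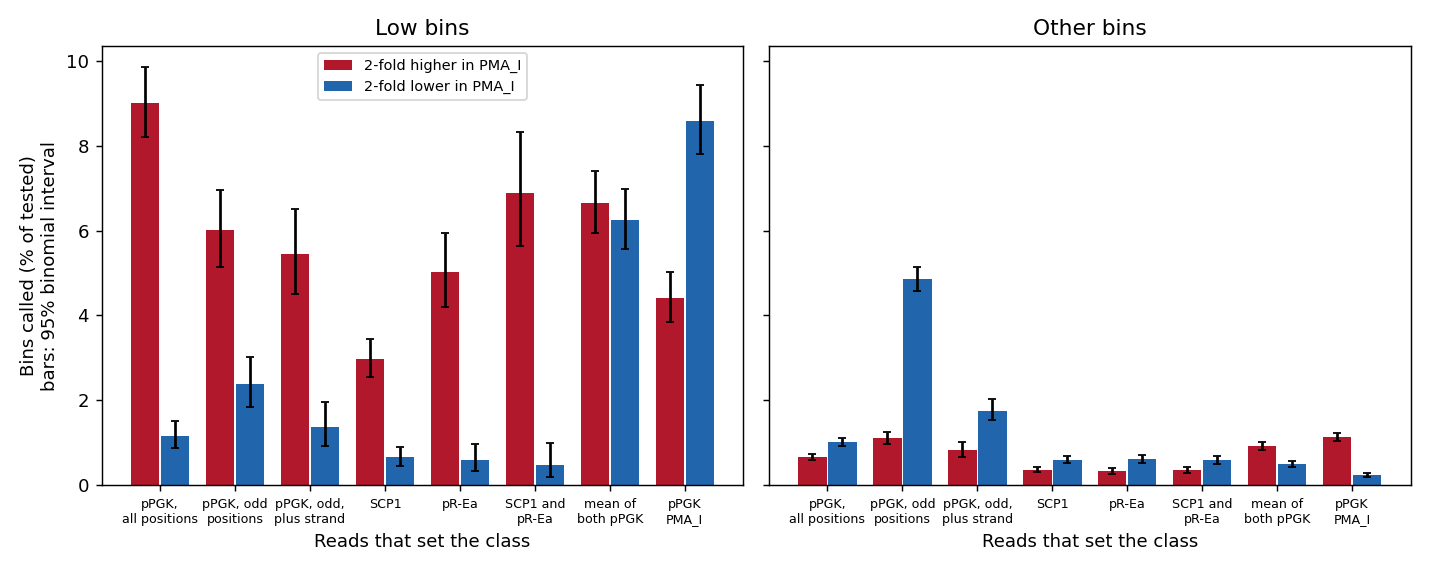
Percent of bins called higher (red) and lower (blue) in PMA_I, for low bins on the left and other bins on the right, by the reads that set the class, with exact binomial 95% intervals. The intervals treat bins as independent and do not cover differences between libraries. Of the 8 sources drawn, low bins have more higher than lower calls for each except PMA_I itself. For the mean of both pPGK libraries the shares are nearly equal. Classes from the opposite strand, and from odd positions without the top position, are not drawn and have more lower calls.

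The strands of a bin did not move together. In this assay fragments can be cloned in either orientation. Over 14484 bins with at least 50 input reads on each strand, activity on the plus and minus strand had a Spearman rho of 0.432 in PMA_I and 0.148 in pPGK, and the changes on the strands had a rho of 0.08. The same value was 0.851 with SCP1 and 0.934 with pR-Ea over their own bins.

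The median change was above 0 on the strand that was low in pPGK and below 0 on its partner. The pPGK reads of a strand set its class and also enter its change, so counting error alone would raise a low strand. Requiring a partner that is not low acts in the opposite direction on that partner. The part of this in the medians was not tested. In 1636 bins low on the plus strand only, the median change was 0.17 on the plus strand and -0.30 on the minus strand. In 1694 bins low on the minus strand only it was 0.19 on the minus strand and -0.31 on the plus strand. In 418 bins low on both it was 0.11 on the plus and 0.10 on the minus strand, and in 10736 bins low on neither it was -0.05 on each. At or below -2 on both strands, 59 bins had medians of 0.45 and 0.24.

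A class from the opposite strand reversed the sign of the difference of medians. With the class from the plus strand and the change from the minus strand, 26 of 2749 low bins were higher (0.946%) and 79 lower (2.87%), and the median was -0.14 in low bins and 0.08 in the others. With the strands exchanged 44 of 2684 were higher (1.64%) and 55 lower (2.05%), with medians of -0.15 and 0.07. Over all bins 1.82% were higher and 1.83% lower in the former split, and 1.66% and 1.47% in the latter. The 1.64% thus lay at the background. Classes from the other promoters, by contrast, gave the same direction on each strand: in bins low with SCP1 the median was 0.13 on the plus and 0.13 on the minus strand, against 0.00 in the other bins on each strand. With pR-Ea it was 0.13 and 0.13, against -0.01 and -0.02.

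**Figure D4:**
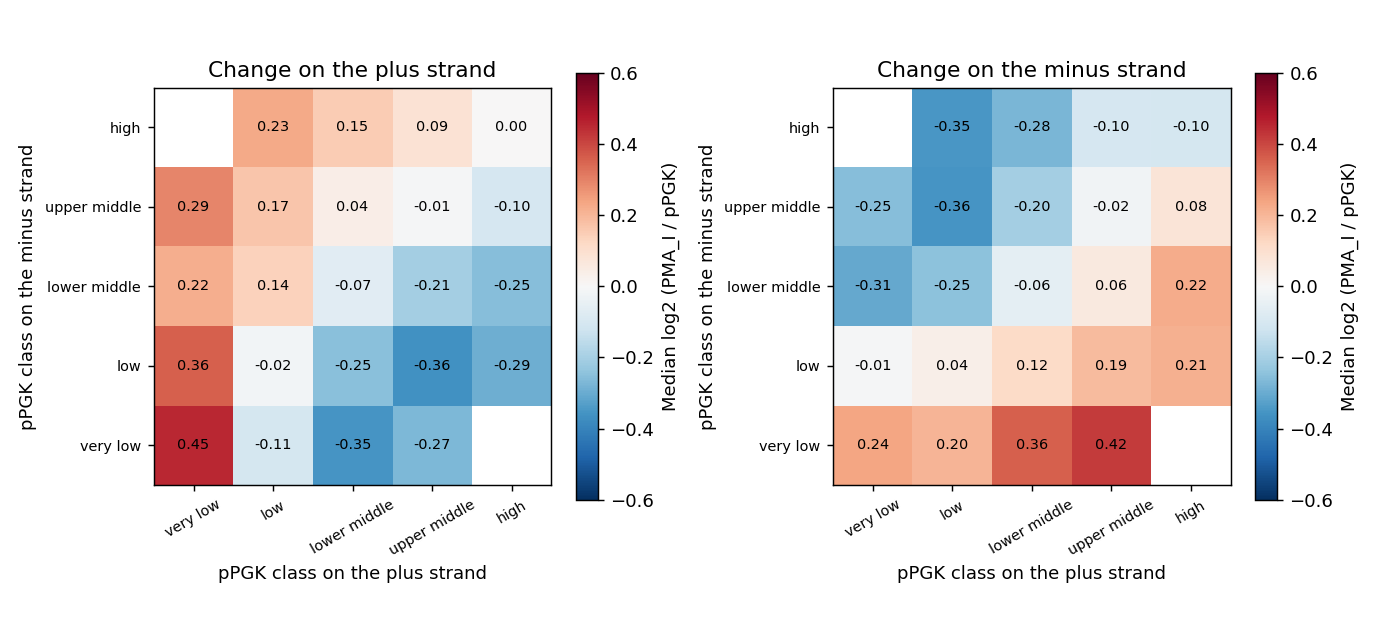
Median log2 change (PMA_I over pPGK) on the plus strand (left) and the minus strand (right), in cells set by the pPGK class of the plus strand (horizontal) and of the minus strand (vertical); cells with under 20 bins are blank. On each strand the median lay above 0 in every cell where that strand was very low, such as 0.45 and 0.24 where both were, and below 0 in every cell where its partner was low or very low and it was not. The pPGK reads of a strand set its class and also enter its change.

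The median change fell with depth in low bins and in the others alike, and low bins had the higher median at each depth. The classes here came from the pPGK reads that also enter the change. In bins with 50 to under 100 input reads the median change was 0.42 in low bins and 0.20 in others. In bins with 100 to under 200 it was 0.30 and 0.06, with 200 to under 500 it was 0.22 and -0.04, and with 500 or more it was 0.15 and -0.13. The share of low bins called higher was 14.8%, 8.52%, 4.59% and 2.63% in that order of depth, against 1.24%, 0.159%, 0.0718% and 0.0703% of other bins. In bins with at least 10 positions in each library 160 of 3044 low bins (5.26%) and 86 of 31955 others (0.269%) were higher.

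The 425 low bins that rose remained, for the most part, weak. Their median activity was -0.99 in PMA_I and -2.26 in pPGK. In PMA_I 211 of them were still at least 2-fold below input, 43 lay above 0 and none was 2-fold above input. The median rise was 1.21, and the middle 50% of rises lay between 1.08 and 1.43. Of these bins 62.4% had fewer than 10 positions in a library, against 35.5% of all low bins, and the position with most reads held a median of 56.9% of a bin's PMA_I reads and 47.1% of its pPGK reads. An interval over positions in place of reads upheld 356 of the 425, 161 were still called without the position with most reads, and 21 by distinct positions in place of reads.

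Only part of these 425 bins were measured with the other promoters, and most of those measured were low there too. Of 193 measured with SCP1, 150 (77.7%) were low, against 63.2% of all low bins measured. Of 176 measured with pR-Ea, 122 (69.3%) were low, against 42.2%. Their median activity was -2.08 with SCP1 and -1.49 with pR-Ea. In pPGK the 425 bins had a median of -2.26, against -1.49 in all low bins, so the shares compare bins of unlike pPGK activity. In 76 bins both strands had at least 20 reads, and in 65 of these the change was above 0 on each strand, against 825 of 2489 for all low bins. The call requires a 2-fold rise of the summed reads, which favours a rise on each strand, so this contrast is no separate check. Neighbouring bins that were not themselves in this group had a median change of 0.32, with 80.8% of 99 above 0, against -0.03 and 46.8% over all bins with a neighbour. This contrast was not matched for depth. The 425 bins had a median of 75 input reads, against 105 over all tested bins. Bins not low with 50 to under 100 input reads had a median change of 0.20, with 70.4% above 0.

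Among low bins with at least 10 positions in each library and the same direction on both strands, ranked by the lower bound of the change over positions, the first was chromosome 11, 69092501 to 69093000. It had 210 reads in PMA_I and 41 in pPGK, over 296 input reads. Its change was 2.17 (95% interval 1.71 to 2.72, SE 0.32) and its activity -1.96 in PMA_I and -4.13 in pPGK. It was low with SCP1 (-2.45) and with pR-Ea (-2.66) too. Most of its reads lay on the minus strand, with 191 in PMA_I and 32 in pPGK, where the change was 2.35, against 0.82 on the plus strand. The next bin, from 69093001, rose with it, at 211 reads in PMA_I and 83 in pPGK (1.18, SE 0.34).

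Chromosome 19, 6493501 to 6494000, had 853 reads in PMA_I and 302 in pPGK, a change of 1.34 (SE 0.14). Its rise came from the plus strand (1.44), and the minus strand had 0.42. Its activity with SCP1 was -3.06, the lowest among the 7 of these bins measured there. Chromosome 4, 11721501 to 11722000, had most reads of these bins, 1878 in PMA_I and 696 in pPGK, over 1265 input reads. Its change was 1.27 (SE 0.23), with 1.75 on the plus and 1.34 on the minus strand, and its activity -0.89 in PMA_I and -2.17 in pPGK. The weakest was chromosome 14, 119248501 to 119249000, with 180 reads in PMA_I and 75 in pPGK over 563 input reads. Its activity was -3.10 in PMA_I and -4.20 in pPGK, so a change of 1.09 (SE 0.15) left it far below input, with 1.06 on each strand.

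The remaining bins of this group rose by similar amounts. Chromosome 5, 145836001 to 145836500, had 266 reads in PMA_I and 88 in pPGK, a change of 1.43 (SE 0.22). Chromosome 4, 152508001 to 152508500, had 213 and 76 reads in PMA_I and pPGK (1.32, SE 0.17), and chromosome 12, 86815001 to 86815500, had 231 and 83 (1.31, SE 0.24). These lay closer to the average bin, with activities of -0.38 and -0.19 in PMA_I. Chromosome 5, 118315001 to 118315500, had 143 reads in PMA_I and 52 in pPGK (1.28, SE 0.17). It was not low with SCP1 (0.30), unlike the other bins of this group measured there. Of all its pPGK reads 62.6% had been left out for a low mapping score, against 5.92% of its PMA_I reads. These shares were 29.3% and 0.0% in the named bin on chromosome 11, and 26.1% and 6.01% in the other bin on chromosome 5. On chromosome 14 they were 20.2% and 3.74%, and in the rest of the group at most 2.52% of pPGK reads were left out. The part of these losses in the rises was not tested.

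A deeper bin, chosen after its values were seen because it had most input reads of the low bins that rose, was chromosome 2, 153252501 to 153253000. It had 1675 reads in PMA_I on 156 positions and 623 in pPGK on 150 positions, over 4119 input reads. Its change of 1.27 (95% interval 1.13 to 1.40, SE 0.09) left it low, at -2.76 in PMA_I and -4.03 in pPGK, and it was low with SCP1 (-2.87) and pR-Ea (-2.25). The largest single ratio among low bins, also chosen after its value was seen, was on few plasmids: chromosome 2, 90451001 to 90451500, had 76 reads on 3 positions in PMA_I and 5 reads on 1 position in pPGK (3.52, 95% interval 2.48 to 5.43).

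Rises outside the low classes were fewer and reached higher output. Of 298 such bins 131 were at least 2-fold above input in PMA_I, and their median activity was 0.90 in PMA_I and -0.22 in pPGK. They held few plasmids, with medians of 7 positions in PMA_I and 6 in pPGK, and the position with most reads held a median of 84.6% of PMA_I reads. Their share, 0.660%, was below the 1.45% of all bins, which the low bins raise.

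Of these bins the ranking put first chromosome 16, 94941001 to 94941500, and its neighbour, up to 94942000, also ranked high. The first had 2851 reads in PMA_I and 825 in pPGK over 224 input reads, a change of 1.63 (95% interval 1.52 to 1.74, SE 0.13), with 1.55 on the plus and 1.78 on the minus strand. The second had 4285 reads in PMA_I and 1478 in pPGK over 337 input reads, a change of 1.38 (SE 0.22), with 1.40 and 1.34 on the strands. Activity in these bins was 2.20 and 2.20 in PMA_I and 0.57 and 0.83 in pPGK. It was near the average bin with SCP1, at 0.10 and -0.03.

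Chromosome 2, 62824501 to 62825000, had 547 reads in PMA_I and 164 in pPGK (1.57, SE 0.32). Chromosome 7, 28326001 to 28326500, had 397 and 136 in PMA_I and pPGK (1.38, SE 0.13), and its neighbour from 28326501 had 1145 and 712 (0.53, SE 0.25) without a call. Chromosome 4, 132168001 to 132168500, had 550 reads in PMA_I and 207 in pPGK (1.25, SE 0.19). All 3 had activities of 1.09 to 1.74 in PMA_I, against -0.38 to 0.49 in pPGK.

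Bins already high in pPGK seldom rose further. The 3 that did, named here after their values were seen, were chromosome 5, 63156501 to 63157000, with 1125 reads in PMA_I and 464 in pPGK (1.12, SE 0.31), chromosome 2, 74036001 to 74036500, with 716 and 258 (1.31), and chromosome 1, 175836001 to 175836500, with 845 and 371 (1.03). None of them passed the rule for named bins.

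**Figure D5:**
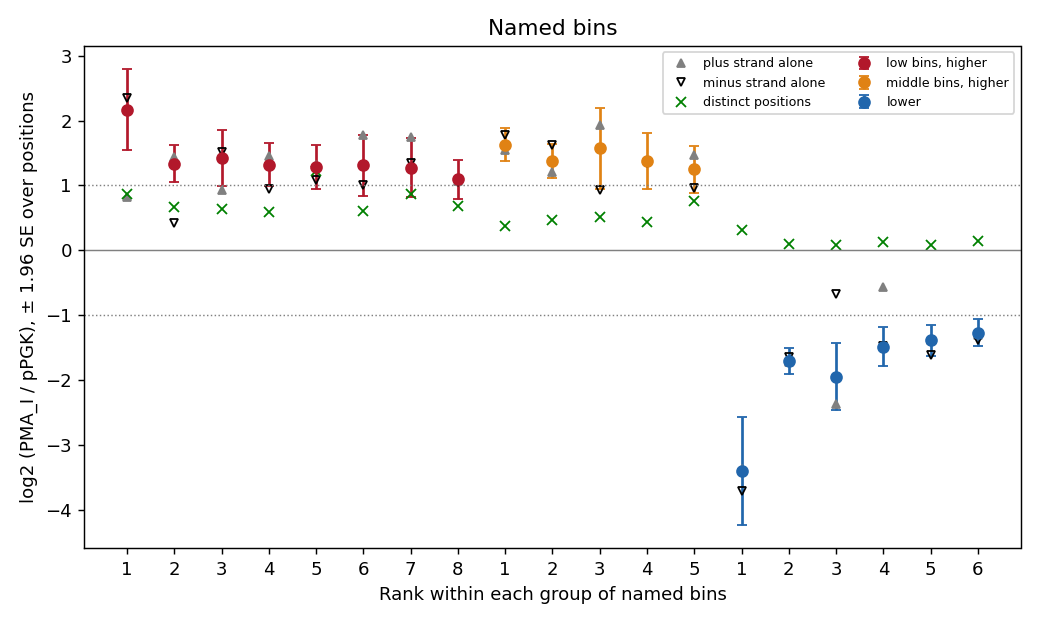
Log2 change (PMA_I over pPGK) of the named bins, with bars of the 95% interval over positions, for 8 low bins and 5 middle bins that rose and 6 bins that fell, beside the change on each strand alone and by distinct positions. Strands share the direction of the bin by the rule, while the crosses for distinct positions lie near 0 and above it for the bins that fell. For the bins that rose the crosses lie under 2-fold, at 0.38 to 0.87, except for 1.22 in 1 low bin.

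Falls were about as frequent in bins that were not low (1.02%) as in low bins (1.17%), and 2 features stood beside them. Of the 460 falls that were not low 356 were below input in PMA_I, with a median activity of -1.78 in PMA_I and 0.11 in pPGK. The first feature was the mapping score: in bins with at least 50% of their pPGK reads at positions left out for a low score, 147 of 3488 (4.21%) were lower, against 296 of 36717 (0.806%) where under 10% were left out. The second was a set of positions with many reads in pPGK and few in PMA_I. Among 158542 positions with at least 50 pPGK and 20 input reads, 1042 had 16-fold fewer reads in PMA_I than in pPGK, and 92.9% of these lay on the plus strand. In the other direction 5 of 188242 positions did so. The part of either feature in the falls was not tested.

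Large falls outnumbered large rises and rested on few positions. A change of -3 or less was seen in 144 bins that were not low, with a median of 6 reads in PMA_I and 208 in pPGK on 2 pPGK positions, while 1 bin of any class had a change of 3 or more. In 5 of the bins called lower PMA_I had 0 reads. Chromosome 17, 26655001 to 26655500, named for the lowest ratio after it was seen, had 0 reads in PMA_I and 273 in pPGK, on 2 positions, over 79 input reads. With at least 10 positions in each library, and reads scaled anew to those bins, the counts over all bins were 270 higher and 139 lower. With the main scaling such bins had 160 higher and 11 lower among low bins, and 86 higher and 136 lower among the others.

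The named falls mostly lay at such low-score sites. The first was chromosome 18, 3006001 to 3006500, with 65 reads in PMA_I and 628 in pPGK (-3.41, SE 0.42). In that bin 85.7% of all pPGK reads had been left out for their score, and in 4 of the other 5 named falls 81.1% to 82.7%. The exception was chromosome 12, 114532501 to 114533000, with 149 reads in PMA_I and 518 in pPGK (-1.95, SE 0.26) and 12.6% left out. Its plus strand had -2.37 and its minus strand -0.68.

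The others were on chromosomes X and 11. Chromosome X, 145048001 to 145048500, had 81 reads in PMA_I and 239 in pPGK (-1.71, SE 0.10), and X, 100651001 to 100651500, had 403 and 875 (-1.28, SE 0.11). On chromosome 11 the bin from 82744501 to 82745000 had 625 reads in PMA_I and 1574 in pPGK (-1.49, SE 0.15), and the bin from 82746001 to 82746500 had 764 and 1794 (-1.39, SE 0.12). These belong to a run of 4 adjacent bins called lower, with 4014 reads in PMA_I and 8532 in pPGK. By distinct positions all 6 named falls had a change above 0, of 0.08 to 0.32.

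Adjacent bins called together were more common among falls. Rises made 4 runs of 2 bins, and falls made 14 runs of 2 bins, 1 of 3 and 2 of 4. The run with most reads, chromosome 2, 98506001 to 98507500, held 9512 reads in PMA_I and 148914 in pPGK over 70698 input reads, and 92.7% of the pPGK reads of its deepest bin had been left out for their score. Of the rises, the pairs on chromosomes 16 and 11 are given above. The other pairs were low in pPGK, namely chromosome 5, 67043001 to 67044000, with 187 reads in PMA_I and 52 in pPGK, and chromosome 8, 12546501 to 12547500, with 184 and 49.

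Calls were spread over the chromosomes. Leaving out chromosome Y, with 2 bins, the share of bins called higher ran from 0.887% on chromosome 19 to 2.30% on chromosome 14, and the share called lower from 0.814% on chromosome 8 to 1.69% on chromosome 9. Of low bins, 4.93% on chromosome 19 and 13.5% on chromosome 14 were higher, the lowest and highest shares.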

How the data were processed

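The members, classes and lists were chosen with earlier results of these data known. Bowtie2, SAMtools and bedtools 2.28.0 with build mm9 are named in the submitters' processing notes; the order of steps is not given in the sources used here. Per 5′ position and strand of a 315 bp fragment, the authors deposited whole-number read counts, taken here as reporter and input counts from their values, since no label states this. The deposited mapping score reached below 30 in both pPGK files; a position was used only if neither file listed it under 30. A position listed on both strands was counted once and placed between its 2 midpoints. Reads on chromosomes 1 to 19, X and Y were summed in 500 bp bins by fragment midpoint. Bins with at least 50 input reads were kept, and counts were scaled to the reads in kept bins. Calls needed a 2-fold change (pseudocount 1), an exact 95% interval without equality and 50 reporter reads. No p-value is given. The SE uses the delta method over positions. Classes low with SCP1 or pR-Ea used each library's own input, at least 50 reads. Only the rule of size was checked on simulated counts, which held counting error alone. Named bins were called bins with at least 10 positions in each library and the same direction on both strands (20 reads each), ranked by the bound nearest 0 of the interval over positions: 8 low rises, 5 middle rises, 5 high rises (none passed) and 6 falls. Alternatives covered scaling, filters, bin size, thresholds, strands and the source of the class. Gene names, sequences and the planned motif search were not used, since the tables at hand belong to another build. Python 3.11.15, numpy 2.4.6, pandas 2.3.3, scipy 1.17.1 and matplotlib 3.10.9 were used.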

Additional observations from a re-analysis of the deposited data

Results flagged for a closer look

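Reads outside the kept bins, which entered alternatives with a lower input minimum or another scaling but not the main comparison, took a larger share of the reporter than of the input. Of used reads, 40.1% of PMA_I and 35.3% of pPGK lay outside kept bins, against 28.2% of the input.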

How the results depend on the processing

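No paired analysis was possible because each group holds 1 library. The alternatives on distinct positions per bin, on excluded reads, on even positions, on both other promoters, on plus-strand positions and on opposite strands were chosen after seeing the data, as was the odd and even split without the top position. Against 723 bins higher and 515 lower, counts were 7249 and 7785 without a mapping filter, 4202 and 2309 at 20 input reads, 105 and 50 at 200, 14858 and 6762 without a minimum, 472 and 332 at 200 reporter reads, 4726 and 1942 at 1.5-fold, 66 and 261 at 3-fold, 78 and 71 by distinct positions, and 270 and 139 with 10 positions. Higher bins were 1469 at positions in both files, 475 with the median at 0, 434 scaled to all used reads and 433 on the plus strand. Lower bins were 3067 without the top position, 229 on the minus strand and 309 with at most 10% excluded pPGK reads. The other alternatives left 10 counts higher and 11 lower within 1.5 times. Low bins higher (main 425) were 1120 without a mapping filter, 91 at 200 input reads, 169 with 10 positions and 264 with at most 10% excluded. The alternatives with 10 positions and with at most 10% excluded were scaled and classed anew on their own bins. Low bins lower (main 55) were 85 with the median at 0, 1474 without a mapping filter, 4 at 200 input reads, 148 with quartile limits, 712 without the top position and 11 with 10 positions. The median of low bins minus that of others (main 0.21) was 0.18 with the median at 0, 0.28 at 200 input reads, 0.061 with quartile limits and 0.17 with at most 10% excluded. It reversed to -0.19 without a mapping filter, -0.22 and -0.21 with the class from the opposite strand, and -0.19 with the class from PMA_I. By class source the difference and the percent of low bins higher (main 9.01) were 0.18 and 6.01 from odd positions, 0.17 and 6.04 from even, 0.11 and 5.02 from odd positions without the top position (where 8.41% of low bins were lower), 0.27 and 5.45 on the plus strand, 0.15 and 2.97 from SCP1, 0.29 and 6.89 from both other promoters, and 0.016 and 6.64 from the mean. That percent was 0.946 and 1.64 from the opposite strand, 5.02 from pR-Ea and 4.41 from PMA_I. Bins above and below input in PMA_I (main 5299 and 5204) were 3297 above with the median at 0, 2090 and 14818 without the top position, and 21246 and 11509 without a mapping filter. In pPGK (main 2234 and 5141) they were 1436 above with the median at 0, 1123 and 12775 without the top position, and 4779 above without a mapping filter. The top position was removed from the reporter reads and not from the input. This lowers the activity of bins that rest on few positions, and 7518 tested bins were then low, against 4719. Among 19 named bins the 6 falls reversed by distinct positions, to 0.316, 0.098, 0.086, 0.130, 0.084 and 0.142 in rank order. By the same measure 12 named rises were under 2-fold and 1 was not. Removing the position with most reads reversed no named bin. The strands alone could not reverse one, since the rule for named bins required the same direction on both. The cause of these changes was not tested. Too few reporter reads left 422 kept bins without a call. The motif search was not run.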
